A study of Homo sapiens with 20 samples.

Results

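The 59 genes described here lie on chromosome 17 between 0 and 20 Mb (hg38), an interval on the short arm, 17p, that was picked because its mRNAs are high in 2 pools of NNMT-edited breast cancer cells. They were named in a list and matched to the deposited count table by Entrez identifier, and all 59 were found and tested. The table holds 436 genes of the interval, of which 282 passed the filter on low counts, so the listed genes are 59 of 282 tested in the interval and of 16323 tested in all. The values that chose the interval are the differences between the pools and unedited cells, so those differences are given below as a description, and counts of calls among them support nothing. The listed genes are also more abundant than the other 223 tested genes of the interval, with a median of 20.4 CPM per kb of gene length in wt 2D libraries for the listed genes and 2.47 for the others. CPM is a gene's counts per 1e6 counts of the library, after TMM scaling of library sizes.

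The cells are SUM159PT, an established triple-negative breast cancer line. In the KOs pool NNMT, the gene of nicotinamide N-methyltransferase, was targeted with 1 sgRNA at its transcription start site, and in the KOd pool with 2 sgRNAs that delete exon 1. Each pool is a mixture of several edited clones, so an effect of the NNMT edit and a trait of the clones that were mixed cannot be told apart. The third genotype is wt, the unedited line. Adherent cells (2D) grew in Ham's F12 with serum, insulin and hydrocortisone, and tumorspheres (3D) grew without attachment in a medium with B27, EGF (20 ng/mL) and bFGF for 2 rounds of 6 days, so that 3D libraries come from secondary spheres. The groups were KOs 3D, KOd 3D, wt 3D, KOs 2D, KOd 2D and wt 2D with 3 libraries each. In a seventh group with 2 libraries, adherent wt cells were moved to the tumorsphere medium before harvest. RNA came from a kit for larger samples in 2D and from its micro version in 3D, so culture and RNA kit cannot be told apart. The labels do not say that replicates were separate cultures, and a p-value below measures the spread between these libraries.

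The short arm of chromosome 17 is gene-dense and carries genes with unrelated roles, many of them used by every cell. In carcinomas of the breast this arm is often lost or rearranged on one or both copies, and the mRNA level of a gene often moves with its number of copies. DNA copy number was not analysed here. The listed genes were grouped by what their products do, with 11 in membrane traffic, lysosomes and autophagy, 11 in RNA processing and translation, 8 in signalling, 7 in the cytoskeleton, 7 in mitochondria and metabolism, 7 in protein folding and turnover, 6 in transcription and chromatin, and NUP88 and PMP22 in a remainder.

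Libraries held 37316513 to 43744817 counts in the pool labelled KOs and 26396964 to 32016875 in all others. In 2D NNMT mRNA averaged 106 ± 27.6 CPM in the libraries labelled KOs and 4.55 ± 0.139 CPM in KOd, against 117 ± 13.3 CPM in wt (SD, n = 3 each). The log2 fold change of -0.14 in labelled KOs did not pass the test (adjusted p = 0.52, edgeR), and that of -4.68 in KOd did (adjusted p = 3.7e-11). In 3D it was -0.21 in labelled KOs (adjusted p = 0.30) and -4.26 in KOd (adjusted p = 7.1e-11). The mRNA therefore does not check the KOs label, and these libraries are called labelled KOs. Of markers of the line, VIM stood at 2790 to 5711 CPM in all libraries and ESR1 and PGR at no more than 0.324 CPM. ESR1 and PGR belong to a list of 5 luminal and receptor genes, and others of this list were higher. The sum of the 5 genes was 13.4 to 16.6 CPM in KOd 2D and 5.18 to 5.65 CPM in labelled KOs 2D, against 4.59 to 5.14 CPM in wt 2D. In 3D it was 10.2 to 13.1 CPM in KOd and 7.82 to 9.36 CPM in labelled KOs, against 7.31 to 8.38 CPM in wt. Of markers of other cell types, the endothelial CDH5 reached 0.0937 CPM. PECAM1, an endothelial and leukocyte adhesion gene, reached 101 CPM and VWF reached 1.71 CPM, and the sum of these 3 endothelial markers (per library total, without TMM) was 33.5 to 38.8 CPM in labelled KOs 3D and 97.7 to 102 CPM in KOd 3D, against 50.0 to 65.7 CPM in wt 3D, and 1.79 to 12.2 CPM in 2D. Its part in the results was not tested. In 3 groups 1 library stands apart, namely replicate A of labelled KOs in 2D and replicates C of KOd and of wt in 3D, and some counts below are also given without these 3.

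Promoter sequences are shown for the genes on which the results turn most: MYH10, with the largest difference between pools and wt; ULK2, which is low in the pools; ALDH3A2, whose response to spheres, set against that of wt, went opposite ways in the 2 pools; and PFN1, the most abundant listed gene per kb. Each run is the 250 bases before the RefSeq start (GRCh38.p14), 5′ to 3′ on the gene's strand, and capitals mark matches to GGGCGG or CCAAT on either strand. TATAAA and CGGAAG were searched in the same way and have no match in these 4 runs.
MYH10: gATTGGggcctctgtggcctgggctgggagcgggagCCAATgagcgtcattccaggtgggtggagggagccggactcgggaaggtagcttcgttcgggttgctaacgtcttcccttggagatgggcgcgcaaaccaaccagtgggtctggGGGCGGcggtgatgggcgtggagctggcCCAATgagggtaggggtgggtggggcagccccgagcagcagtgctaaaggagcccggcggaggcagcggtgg
ULK2: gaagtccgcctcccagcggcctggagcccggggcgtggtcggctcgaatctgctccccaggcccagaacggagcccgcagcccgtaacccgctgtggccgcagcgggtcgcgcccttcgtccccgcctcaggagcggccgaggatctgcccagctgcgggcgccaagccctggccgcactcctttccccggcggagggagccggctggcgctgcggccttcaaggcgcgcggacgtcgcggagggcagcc
ALDH3A2: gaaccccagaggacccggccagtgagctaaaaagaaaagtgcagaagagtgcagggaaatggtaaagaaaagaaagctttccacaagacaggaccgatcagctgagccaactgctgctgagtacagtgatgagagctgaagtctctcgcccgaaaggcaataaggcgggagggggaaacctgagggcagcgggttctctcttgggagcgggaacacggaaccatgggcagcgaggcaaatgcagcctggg
PFN1: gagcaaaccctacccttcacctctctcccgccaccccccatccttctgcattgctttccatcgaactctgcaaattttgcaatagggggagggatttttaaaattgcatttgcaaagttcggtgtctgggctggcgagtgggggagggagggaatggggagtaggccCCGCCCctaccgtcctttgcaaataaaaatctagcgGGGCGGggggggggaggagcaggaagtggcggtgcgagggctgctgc
These runs cover chr17:8630726-8630975 on the minus strand for MYH10, chr17:19867937-19868186 on the minus strand for ULK2, chr17:19647886-19648135 on the plus strand for ALDH3A2 and chr17:4948531-4948780 on the minus strand for PFN1. They differ widely, with 32 CpG dinucleotides upstream of ULK2, 16 upstream of MYH10, 10 upstream of PFN1 and 9 upstream of ALDH3A2. MYH10 has 3 CCAAT matches and 1 GGGCGG match, PFN1 has 2 GGGCGG matches, and neither motif occurs upstream of ULK2 or ALDH3A2. Over windows of 300 bases (250 before and 50 after the start), which 55 of the 59 genes have, GGGCGG was present in 74.5% of listed genes and 66.1% of all tested genes with a window. CCAAT was present in 32.7% of listed genes and 36.7% of all, CGGAAG in 30.9% and 30.5%, and TATAAA in 1.82% and 6.68%. Median GC content was 67% in the windows of listed genes and 64.3% in those of all tested genes. A match is a string of letters and not a shown binding site.

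The listed genes were high in the pools in both cultures, most of all in the spheres of the pool labelled KOs. The median log2 fold change over the 59 genes was 0.68 in labelled KOs and 0.21 in KOd against wt in 2D, and 1.15 in labelled KOs and 0.67 in KOd against wt in 3D, while medians over all tested genes lay between 0.00 and 0.06. All 59 are accounted for by sign: 38 genes were above wt in all 4 differences, 20 in 3 of them, and ULK2 in none. Counts at an adjusted p under 0.05 (edgeR quasi-likelihood test, Benjamini-Hochberg over all genes tested) are given only to size the choice of the interval. They were 48 higher in labelled KOs 2D (27.7% of all tested genes), 24 in KOd 2D (22.1%), 56 in labelled KOs 3D (27.8%) and 54 in KOd 3D (16.5%). Lower counts were 3 (25.5%), 5 (22.5%), 2 (28.5%) and 1 (17.5%) in the same order of groups. In KOd 2D they were 35 higher and 8 lower with the 3 outlying libraries left out, and 31 higher and 8 lower with only the groups compared in the fit. Every pool library lay above every wt library in 44 genes in labelled KOs 2D (25.2% of all tested genes), 33 in KOd 2D (31.4%), 56 in labelled KOs 3D (34.9%) and 54 in KOd 3D (23.1%). Every pool library lay below in 2 (26.3%), 6 (31.3%), 2 (33.8%) and 1 (22.5%). Within a culture, both pools were set against the same wt libraries.

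Levels per library are given as a description, since these pool and wt libraries entered the choice of the interval. Over the 59 genes, the median log2 level relative to the wt 2D mean was 0.37, 0.39 and 0.36 in labelled KOs 3D libraries and -0.01, -0.13 and -0.02 in KOd 3D libraries, against -0.69, -0.73 and -0.78 in wt 3D libraries. In 2D it was 0.58, 0.77 and 0.75 in labelled KOs and 0.27, 0.23 and 0.21 in KOd, against 0.07, 0.06 and -0.14 in wt. Neither pool overlapped wt in either culture, as the choice of the interval favours. The gap between wt and pools was wider in 3D, where the wt libraries stood lowest. The listed genes took 0.960% to 0.974% of all counts in labelled KOs 3D and 0.723% to 0.736% in KOd 3D, against 0.392% to 0.422% in wt 3D. In bulk RNA, fewer cells that express a gene and less RNA per cell cannot be told apart.

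**Figure D1:**
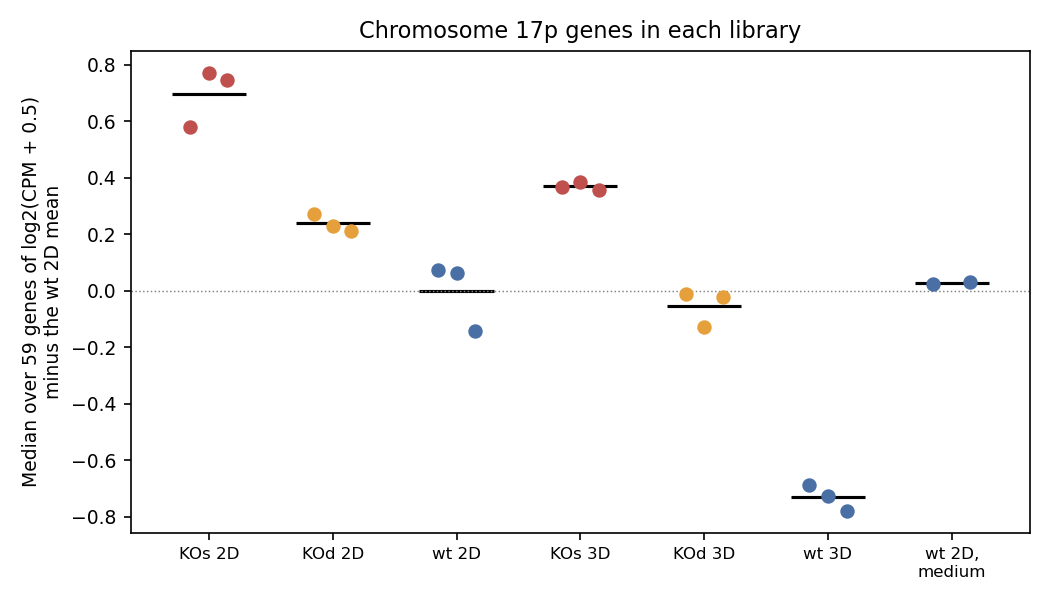
Median over the 59 chromosome 17p genes of log2(CPM + 0.5) minus the wt 2D mean (vertical axis, log2 units), 1 point per library and a line at the group mean, for the 7 groups. The 3 wt 3D libraries lie lowest, at -0.69 to -0.78, and labelled KOs 2D libraries lie highest, at 0.58 to 0.77.

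Among genes of membrane traffic, lysosomes and autophagy, the median of the 11 log2 differences was 0.72 in labelled KOs 2D, 0.14 in KOd 2D, 1.08 in labelled KOs 3D and 0.84 in KOd 3D. VPS53 (17, 508668 to 714839, minus strand), a subunit of the complexes that tether endosome-derived vesicles and the listed gene nearest to the 17p end, had 56.2, 56.5 and 54.8 CPM in labelled KOs 3D libraries and 45.4, 42.2 and 39.8 CPM in KOd 3D libraries, against 23.9, 24.4 and 19.7 CPM in wt 3D libraries. In 2D it had 45.7, 52.0 and 47.4 CPM in labelled KOs 2D libraries and 34.6, 29.7 and 28.2 CPM in KOd 2D libraries, against 38.5, 38.0 and 33.4 CPM in wt 2D libraries. VPS53 thus stood above wt in every pool library in 3D, but in KOd 2D it overlapped wt and had a lower mean. CTNS, which encodes the lysosomal cystine exporter cystinosin, was the highest gene of the group, with 35.9, 36.2 and 43.9 CPM in labelled KOs 2D libraries and 23.5, 24.7 and 19.4 CPM in KOd 2D libraries, against 12.2, 14.6 and 9.65 CPM in wt 2D libraries. Its 3D values were 49.2, 46.7 and 47.2 CPM in labelled KOs and 33.9, 32.2 and 30.0 CPM in KOd, against 15.1, 15.2 and 15.6 CPM in wt, and no pool library overlapped wt in either culture. The read-through gene P2RX5-TAX1BP3, which overlaps CTNS on the other strand, holds 377% of the CTNS counts, so CTNS is uncertain if strand was not used in the counting.

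ULK2 (17, 19770830 to 19867936, minus strand) encodes a kinase that starts autophagosome formation, as its paralog ULK1 does, and it is the listed gene nearest to the 20 Mb end. It had 1.96, 0.859 and 0.880 CPM in labelled KOs 2D libraries and 3.64, 3.63 and 3.76 CPM in KOd 2D libraries, against 7.03, 7.53 and 9.18 CPM in wt 2D libraries. In 3D it had 2.35, 1.95 and 2.43 CPM in labelled KOs 3D libraries and 4.83, 5.05 and 4.62 CPM in KOd 3D libraries, against 14.4, 14.9 and 16.4 CPM in wt 3D libraries. Every pool library lay below every wt library, and the order from labelled KOs through KOd to wt held in both cultures. The log2 differences of ULK2 from wt were -2.66 in labelled KOs 2D, -1.10 in KOd 2D, -2.76 in labelled KOs 3D and -1.66 in KOd 3D, the reverse of the interval's. ULK2 therefore goes against the description of the list as high in the pools. Its low level also places it last of the 59 in wt 2D libraries, at 0.866 CPM per kb.

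RNA processing and translation genes, which include the spliceosome core PRPF8 and the translation factors EIF4A1 and EIF5A, had medians of 0.94 in labelled KOs 2D, 0.18 in KOd 2D, 1.20 in labelled KOs 3D and 0.67 in KOd 3D. In 3D all 11 were above wt in both pools. ELAC2, the nuclease that trims the 3′ ends of tRNA precursors, was the highest, with 122, 124 and 126 CPM in labelled KOs 3D libraries and 81.4, 79.1 and 88.5 CPM in KOd 3D libraries, against 48.7, 46.5 and 39.1 CPM in wt 3D libraries. In 2D ELAC2 had 158, 243 and 243 CPM in labelled KOs 2D libraries and 105, 97.2 and 95.2 CPM in KOd 2D libraries, against 109.9, 106 and 91.5 CPM in wt 2D libraries, so that labelled KOs stood apart while KOd overlapped wt. METTL16, an RNA methyltransferase that acts on U6 snRNA, was the lowest, with 44.8, 44.3 and 40.2 CPM in labelled KOs 3D libraries and 37.5, 38.1 and 43.4 CPM in KOd 3D libraries, against 24.8, 25.2 and 21.2 CPM in wt 3D libraries. In 2D METTL16 had 34.8, 46.4 and 43.1 CPM in labelled KOs 2D libraries and 57.5, 53.2 and 48.0 CPM in KOd 2D libraries, against 46.0, 45.4 and 36.2 CPM in wt 2D libraries, and labelled KOs overlapped wt while KOd did not.

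The 8 signalling genes had medians of 0.53 in labelled KOs 2D, 0.16 in KOd 2D, 1.03 in labelled KOs 3D and 0.67 in KOd 3D. ARRB2, which encodes beta-arrestin 2, a regulator of G-protein-coupled receptors, had 31.2, 31.9 and 33.7 CPM in labelled KOs 3D libraries and 15.5, 18.5 and 16.7 CPM in KOd 3D libraries, against 7.75, 6.92 and 8.85 CPM in wt 3D libraries. Its 2D values were 51.0, 62.9 and 58.8 CPM in labelled KOs and 42.8, 41.4 and 39.5 CPM in KOd, against 28.7, 27.2 and 22.9 CPM in wt. No pool library of ARRB2 overlapped wt, and the labelled KOs libraries were the highest in both cultures. TAX1BP3, a small PDZ-domain protein, was the lowest of the group, with 94.5, 87.8 and 92.6 CPM in labelled KOs 3D libraries and 109, 102 and 113 CPM in KOd 3D libraries, against 69.9, 64.9 and 96.2 CPM in wt 3D libraries. In 2D TAX1BP3 had 139, 108 and 141 CPM in labelled KOs 2D libraries and 108, 117 and 109 CPM in KOd 2D libraries, against 94.0, 102 and 102 CPM in wt 2D libraries. Both pools cleared wt in 2D, and in 3D KOd did while labelled KOs overlapped wt, where replicate C was the highest. Reads of TAX1BP3 are also counted for the read-through gene P2RX5-TAX1BP3, which holds 108% of its counts.

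Cytoskeletal genes had medians of 0.56 in labelled KOs 2D, 0.31 in KOd 2D, 1.01 in labelled KOs 3D and 0.60 in KOd 3D. MYH10 (17, 8474212 to 8630725, minus strand), the heavy chain of non-muscle myosin IIB, had by far the widest difference of the list. It had 98.0, 94.5 and 96.7 CPM in labelled KOs 3D libraries and 49.4, 44.02 and 42.5 CPM in KOd 3D libraries, against 4.46, 4.74 and 5.82 CPM in wt 3D libraries. In 2D it had 110.5, 108 and 70.9 CPM in labelled KOs 2D libraries and 62.3, 51.0 and 48.0 CPM in KOd 2D libraries, against 61.6, 54.5 and 30.9 CPM in wt 2D libraries. The wt spheres thus had only a small fraction of the MYH10 mRNA of every other group, whereas KOd overlapped wt in 2D, and labelled KOs lay above all wt libraries in both cultures. Its log2 differences were 0.98 in labelled KOs 2D, 0.13 in KOd 2D, 4.27 in labelled KOs 3D and 3.18 in KOd 3D. The gene NDEL1, also listed, overlaps MYH10 on the other strand and had log2 differences of 0.95 and 0.51 in labelled KOs and KOd spheres. MYO1C, a class I myosin that links membranes to actin, was the lowest of the group, with 6.88, 6.76 and 6.36 CPM in labelled KOs 2D libraries and 13.3, 13.4 and 15.7 CPM in KOd 2D libraries, against 11.1, 13.3 and 10.5 CPM in wt 2D libraries. In 3D MYO1C had 16.1, 18.6 and 19.8 CPM in labelled KOs 3D libraries and 14.7, 12.3 and 11.8 CPM in KOd 3D libraries, against 11.2, 9.88 and 5.89 CPM in wt 3D libraries. It was below wt in labelled KOs 2D and above wt in labelled KOs 3D, with no overlap either way, and KOd was above wt in both cultures.

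Genes of mitochondria and metabolism had medians of 0.65 in labelled KOs 2D, 0.20 in KOd 2D, 1.26 in labelled KOs 3D and 0.98 in KOd 3D. C1QBP, a protein of the mitochondrial matrix needed for translation there, had 235, 240.0 and 226 CPM in labelled KOs 3D libraries and 125, 146 and 155 CPM in KOd 3D libraries, against 74.4, 77.6 and 63.6 CPM in wt 3D libraries. Its 2D values were 362, 535 and 625 CPM in labelled KOs and 276, 301 and 319 CPM in KOd, against 206, 211 and 169.6 CPM in wt. Both pools cleared wt in both cultures. ALDH3A2 (17, 19648136 to 19677596, plus strand) encodes the fatty aldehyde dehydrogenase, which oxidises long-chain aldehydes and is defective in Sjögren-Larsson syndrome. It had 202, 204 and 194 CPM in labelled KOs 3D libraries and 555, 577 and 543 CPM in KOd 3D libraries, against 237, 250.2 and 288 CPM in wt 3D libraries. In 2D it had 127, 99.4 and 122 CPM in labelled KOs 2D libraries and 85.8, 74.6 and 69.0 CPM in KOd 2D libraries, against 75.6, 73.8 and 74.4 CPM in wt 2D libraries. In spheres KOd was thus far above wt and labelled KOs below it, whereas in 2D labelled KOs was above wt and KOd overlapped it.

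In protein folding and turnover the medians were 1.19 in labelled KOs 2D, 0.22 in KOd 2D, 1.08 in labelled KOs 3D and 0.63 in KOd 3D. EMC6, a subunit of the complex that inserts membrane proteins into the endoplasmic reticulum, had 30.4, 51.2 and 58.9 CPM in labelled KOs 2D libraries and 21.1, 22.2 and 23.9 CPM in KOd 2D libraries, against 18.6, 22.2 and 17.2 CPM in wt 2D libraries. Its 3D values were 23.3, 23.8 and 23.6 CPM in labelled KOs and 14.3, 16.8 and 17.3 CPM in KOd, against 8.66, 8.97 and 10.1 CPM in wt. Both pools cleared wt in 3D, and in 2D labelled KOs did while KOd overlapped it. P2RX5-TAX1BP3, on the other strand, holds 451% of the EMC6 counts. UBE2G1, a ubiquitin-conjugating enzyme, was the lowest, with 48.5, 51.4 and 48.6 CPM in labelled KOs 3D libraries and 55.0, 56.7 and 65.0 CPM in KOd 3D libraries, against 36.6, 39.7 and 41.2 CPM in wt 3D libraries. In 2D UBE2G1 had 61.8, 62.3 and 67.9 CPM in labelled KOs 2D libraries and 74.0, 72.1 and 68.3 CPM in KOd 2D libraries, against 67.0, 61.8 and 59.01 CPM in wt 2D libraries. Labelled KOs overlapped wt in 2D, whereas KOd cleared it in 2D and both pools did in 3D.

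Transcription and chromatin genes had medians of 0.17 in labelled KOs 2D, 0.25 in KOd 2D, 1.23 in labelled KOs 3D and 0.69 in KOd 3D. Unlike most of the list, 3 of these 6 were below wt in labelled KOs 2D. SENP3, a nucleolar protease that removes SUMO, had 112, 108 and 112 CPM in labelled KOs 3D libraries and 65.4, 67.1 and 75.9 CPM in KOd 3D libraries, against 39.0, 37.5 and 34.0 CPM in wt 3D libraries. In 2D SENP3 had 124, 174 and 195 CPM in labelled KOs 2D libraries and 115, 118 and 122 CPM in KOd 2D libraries, against 86.7, 86.7 and 70.2 CPM in wt 2D libraries. No pool library overlapped wt, although SENP3 reads are shared with the read-through gene SENP3-EIF4A1, which holds 891% of its counts. NCOR1, a scaffold of the corepressor complex that silences nuclear receptor targets, had 98.8, 106 and 87.8 CPM in labelled KOs 2D libraries and 196, 181 and 193 CPM in KOd 2D libraries, against 135, 121 and 104 CPM in wt 2D libraries. Its 3D values were 139, 138 and 128 CPM in labelled KOs and 127, 118 and 112 CPM in KOd, against 86.2, 84.9 and 74.0 CPM in wt. The KOd pool cleared wt in both cultures, whereas labelled KOs did so only in 3D.

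Of the remaining 2 genes, NUP88, a nuclear pore protein, had 82.2, 90.1 and 82.9 CPM in labelled KOs 3D libraries and 45.6, 48.6 and 50.6 CPM in KOd 3D libraries, against 32.0, 33.1 and 26.6 CPM in wt 3D libraries. In 2D NUP88 had 102, 144 and 147 CPM in labelled KOs 2D libraries and 104, 107 and 111 CPM in KOd 2D libraries, against 82.9, 84.4 and 72.0 CPM in wt 2D libraries, and both pools cleared wt in both cultures. Its locus overlaps that of RABEP1, also listed, on the other strand. PMP22, a tetraspan membrane protein known from peripheral myelin, had 209.7, 222 and 267 CPM in labelled KOs 2D libraries and 77.1, 74.6 and 76.4 CPM in KOd 2D libraries, against 151, 149 and 138 CPM in wt 2D libraries. In 3D PMP22 had 189.6, 186 and 182 CPM in labelled KOs 3D libraries and 91.7, 94.1 and 68.3 CPM in KOd 3D libraries, against 60.8, 61.2 and 64.8 CPM in wt 3D libraries. PMP22 was below wt in KOd 2D and above wt in the other 3 pool groups, with no overlap.

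**Figure D2:**
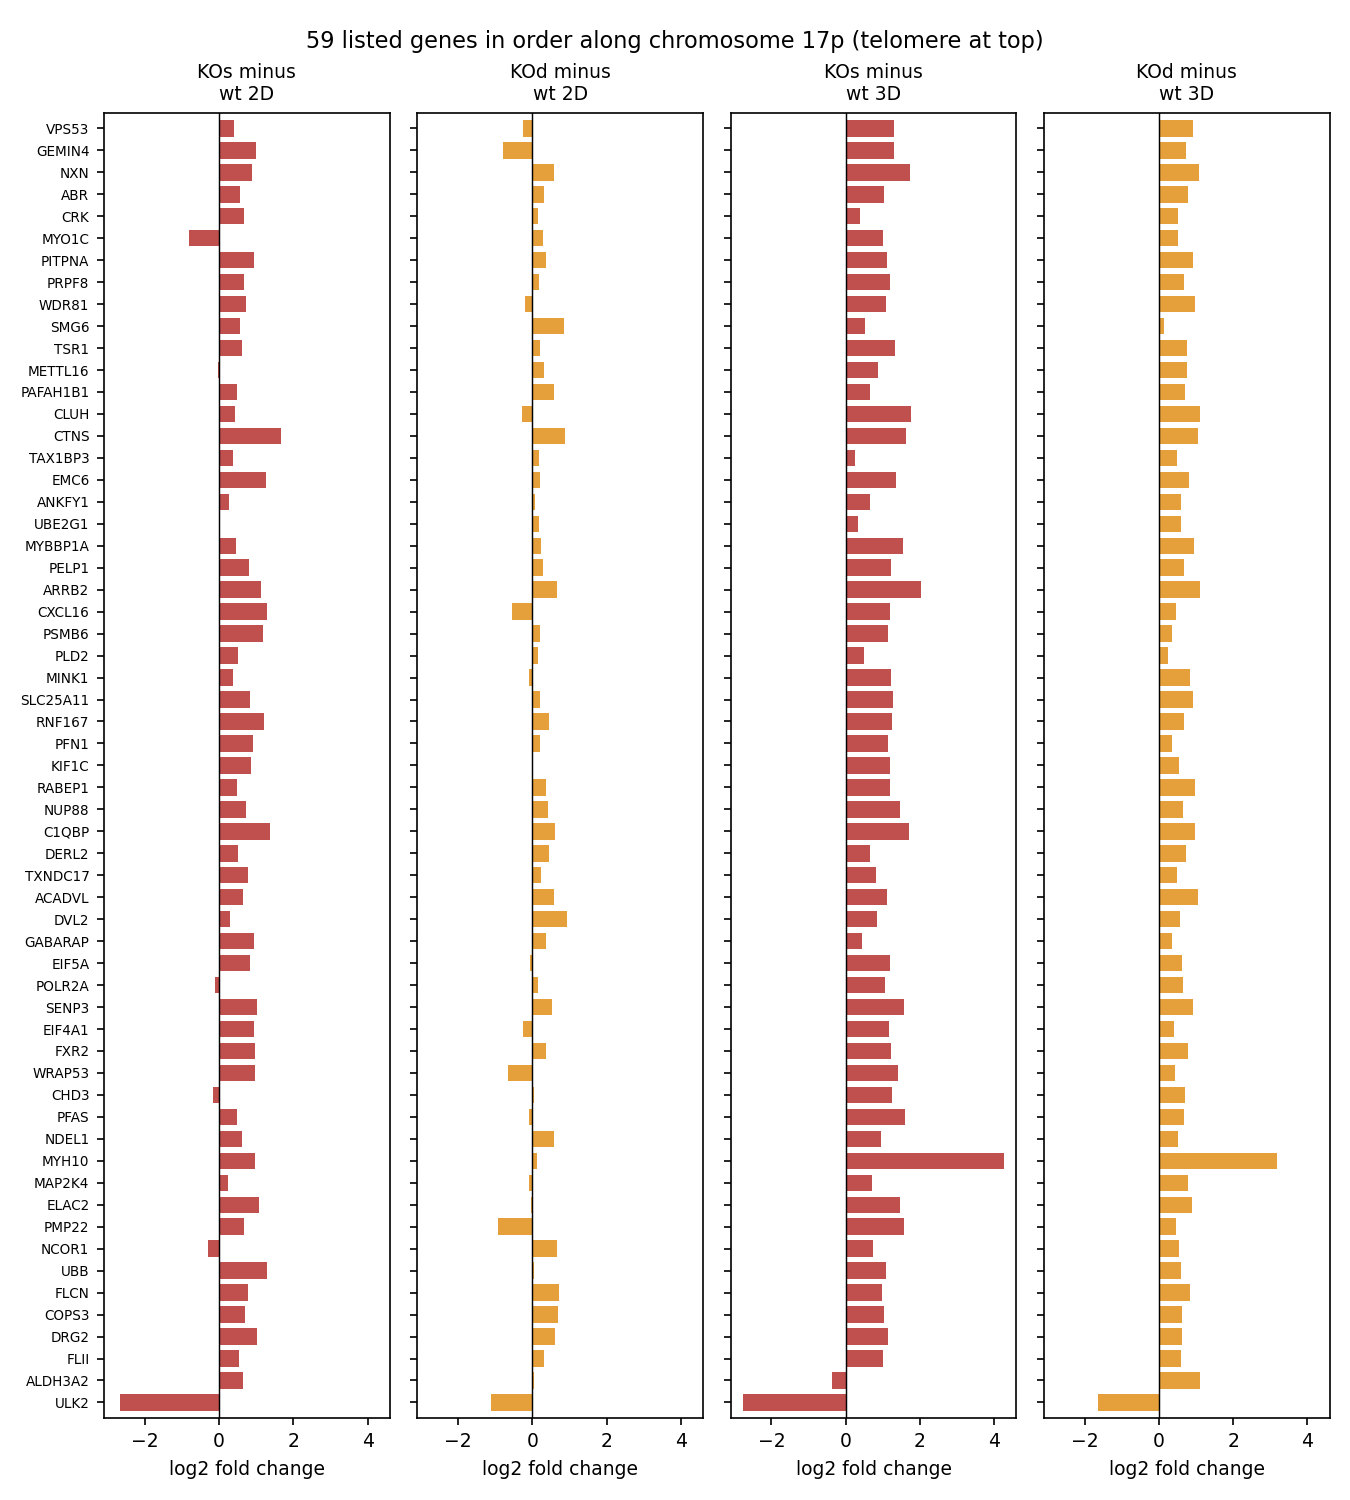
Log2 fold changes of the 59 genes (rows, in order along the chromosome from the 17p end) for labelled KOs and KOd against wt in 2D and 3D (4 panels, log2 units). Bars of MYH10 reach 4.27 and 3.18 in the 3D panels, and ULK2, in the last row, is negative in all 4.

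Along the chromosome the median difference was positive in every part of the interval. The interval was picked on these differences, so this is a description and no test. In consecutive bins of 5 Mb over tested genes, listed or not, medians in labelled KOs 3D were 1.13 (85 genes), 1.11 (109 genes), 1.14 (13 genes) and 0.83 (75 genes), and in KOd 3D 0.74, 0.62, 0.78 and 0.64. In 2D they were 0.72, 0.72, 0.72 and 0.65 in labelled KOs and 0.32, 0.40, 0.32 and 0.46 in KOd. Values stayed high past the limit of 20 Mb. The 17 tested genes from 20 to 25 Mb had medians of 1.37 in labelled KOs 2D, 0.22 in KOd 2D, 1.25 in labelled KOs 3D and 0.80 in KOd 3D, although this bin has few genes and holds pseudogenes. Beyond 25 Mb the 676 tested genes had medians of 0.18, 0.02, 0.11 and 0.14 in the same order of groups. The last 3 tested genes inside the limit were ALDH3A1, ULK2 and AKAP10, with log2 differences in labelled KOs 3D of -3.18, -2.76 and 0.78 and in KOd 3D of 1.85, -1.66 and 0.80. The first 3 outside were SPECC1, CCDC144CP and USP32P3, with 4.41, 1.19 and 0.63 in labelled KOs 3D and 3.28, 0.95 and 0.64 in KOd 3D. As its choice fixes, the interval ranked high among 154 windows of 20 Mb in the genome with at least 20 tested genes, and this is no test. It had the highest median in labelled KOs 3D, the second in KOd 3D and labelled KOs 2D, and the fourth in KOd 2D. The window of the X chromosome from 140 to 160 Mb was above it in labelled KOs 2D, at 0.86, in KOd 3D, at 0.75, and in KOd 2D, at 0.363 against 0.360. In KOd 2D windows of chromosome 8 from 0 to 20 Mb (0.40) and of chromosome 13 from 80 to 100 Mb (0.39) were above it too.

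**Figure D3:**
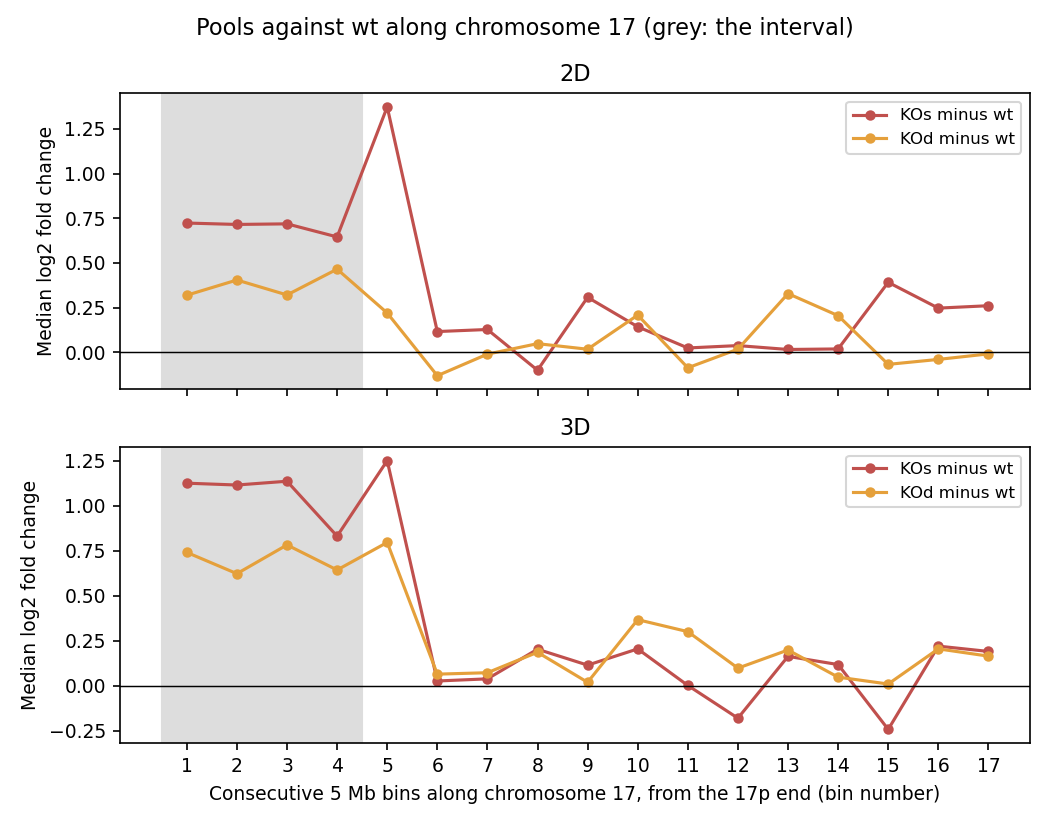
Median log2 fold change against wt (log2 units) over tested genes in consecutive 5 Mb bins along chromosome 17, for labelled KOs and KOd in 2D (upper panel) and 3D (lower panel). The first 5 bins lie above most later ones, with 1.25 in labelled KOs 3D and 0.80 in KOd 3D in the fifth bin, outside the grey interval.

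The culture comparisons ask how the same genes differ between tumorspheres and adherent cells. In wt cells, spheres had less mRNA of most of them: 44 of 59 fell (30.4% of all tested genes) and 9 rose (33.3%), with a median log2 fold change of -0.70 against 0.04 over all tested genes. In 42 listed genes every wt 3D library lay below every wt 2D library (33% of all tested genes). Over all 282 tested genes of the interval the fall was weaker, with a median of -0.26, 42.9% lower and 23% higher. The 223 unlisted genes among them had a median of -0.08, with 34.5% lower and 25.1% higher. Of all genes within the mean CPM range of the listed genes, 39% were lower and 28.9% higher. Complex partners and paralogs of the listed genes, 123 encoded elsewhere, fell too, with a median of -0.37, 56.1% lower and 17.1% higher. The wt libraries of both cultures also entered the differences by which the interval was picked, so that genes low in wt spheres were favoured. The counts of listed genes are therefore not independent of the choice. Among the listed genes MYH10 fell the most, with 4.46, 4.74 and 5.82 CPM in wt 3D libraries, against 61.6, 54.5 and 30.9 CPM in wt 2D libraries, a log2 fold change of -3.29 ± 0.22 (adjusted p = 1.2e-09). PFAS, an enzyme of purine synthesis, had 35.9, 29.1 and 26.5 CPM in wt 3D libraries, against 114, 115 and 91.3 CPM in wt 2D libraries, a log2 fold change of -1.81 ± 0.18 (adjusted p = 1.2e-07). NXN, which encodes the thioredoxin-like protein nucleoredoxin, had 18.0, 17.4 and 24.3 CPM in wt 3D libraries, against 69.5, 69.1 and 67.8 CPM in wt 2D libraries, with -1.79 ± 0.13 (adjusted p = 1.9e-09). In all 3 genes the groups were far apart. Every one of the 6 transcription and chromatin genes fell, as did 10 of 11 in RNA processing and translation.

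Of the 9 genes that rose in wt spheres, 5 belong to membrane traffic, lysosomes and autophagy, where 4 of 11 fell. CXCL16 (17, 4733533 to 4739928, minus strand), a membrane-bound chemokine, had 10.6, 9.71 and 18.2 CPM in wt 3D libraries, against 2.27, 2.53 and 2.12 CPM in wt 2D libraries, a log2 fold change of 2.47 ± 0.24 (adjusted p = 1.2e-07). ALDH3A2 rose by 1.79 ± 0.10 (adjusted p = 1.0e-10), and ULK2 by 0.95 ± 0.21 (adjusted p = 6.7e-04), both with wt 3D libraries above all wt 2D libraries in the values above. CXCL16 overlaps MED11, which holds 90.6% of its counts on the other strand. Others that rose were FLCN (0.59), the lysosomal regulator folliculin, SMG6 (0.51), GABARAP (0.48) and CTNS (0.34).

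In both pools the median was closer to 0. In labelled KOs, 32 of 59 genes fell in spheres (32.1% of all tested genes) and 16 rose (32.9%), with a median of -0.32 against 0.02 over all. In KOd, 28 fell (31.2%) and 12 rose (35.2%), with a median of -0.25 against 0.07. With the 3 outlying libraries left out, 33 fell and 14 rose in KOd. In the main fit 23 listed genes fell in both pools and 9 rose in both. The share of all tested genes that did so was not counted. The responses of labelled KOs and KOd had a Pearson correlation of 0.74 over the listed genes and 0.70 over all tested genes. The 123 partners and paralogs elsewhere had medians of -0.32 in labelled KOs and -0.28 in KOd. Of them 56.9% and 45.5% were lower, and 17.9% and 19.5% higher. Within the mean CPM range of the listed genes, 41.8% and 39.8% of all genes were lower, and 27.8% and 30.1% higher. The 223 unlisted genes of the interval had medians of 0.23 and 0.16. These comparisons use no wt library, but the pool libraries entered the choice of the interval too. The largest falls of listed genes in labelled KOs were those of EIF5A, PFN1 and WRAP53. EIF5A, a translation factor, had 617, 616 and 638 CPM in labelled KOs 3D libraries, against 985, 1501 and 1707 CPM in labelled KOs 2D libraries, a change of -1.16 ± 0.14 (adjusted p = 1.8e-06). PFN1 (17, 4945652 to 4948530, minus strand), the actin-monomer-binding protein profilin 1, had 648, 653 and 657 CPM in labelled KOs 3D libraries, against 1172, 1489.7 and 1709 CPM in labelled KOs 2D libraries, with -1.16 ± 0.11 (adjusted p = 8.1e-08). WRAP53, a telomerase and Cajal body factor, had 20.3, 22.4 and 21.9 CPM in labelled KOs 3D libraries, against 34.4, 52.5 and 55.0 CPM in labelled KOs 2D libraries, with -1.14 ± 0.15 (adjusted p = 3.2e-06). For all 3, no 3D library reached the lowest 2D library, and labelled KOs 2D replicate A lay closest to the spheres. EIF5AL1, a near copy of EIF5A, holds 29.2% of the EIF5A counts, and WRAP53 overlaps a gene on the other strand with 525% of its counts, so both are uncertain.

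CXCL16 rose in the labelled KOs spheres as well, with 29.5, 29.6 and 29.5 CPM in labelled KOs 3D libraries, against 7.40, 4.99 and 4.40 CPM in labelled KOs 2D libraries and a rise of 2.39 ± 0.22 (adjusted p = 8.1e-08) on the log2 scale. MYO1C rose by 1.44 ± 0.18 (adjusted p = 1.8e-06) and ULK2 by 0.85 ± 0.24 (adjusted p = 0.0043). The ULK2 call was lost when only the groups compared were fitted (adjusted p = 0.074), and 1 of its 2D libraries, replicate A, overlapped the 3D libraries: without it the rise was 1.37. In KOd spheres CXCL16 had 14.6, 16.1 and 21.7 CPM in KOd 3D libraries, against 1.44, 1.71 and 1.62 CPM in KOd 2D libraries, a rise of 3.45 ± 0.25 (adjusted p = 2.5e-09). ALDH3A2 rose by 2.87 ± 0.10 (adjusted p = 4.3e-13) in KOd, the largest response of this gene in any genotype. WDR81, a factor of endosome maturation and autophagy, had 73.6, 60.5 and 69.1 CPM in KOd 3D libraries, against 23.7, 25.3 and 25.5 CPM in KOd 2D libraries, with 1.45 ± 0.09 (adjusted p = 4.5e-10).

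The largest falls in KOd spheres were those of NXN, COPS3 and ARRB2. NXN had 40.7, 40.1 and 44.4 CPM in KOd 3D libraries, against 107, 112 and 91.8 CPM in KOd 2D libraries, a change of -1.31 ± 0.12 (adjusted p = 5.3e-08). COPS3, a subunit of the COP9 signalosome, which removes NEDD8 from cullins, had 52.5, 68.0 and 66.1 CPM in KOd 3D libraries, against 145, 153 and 158 CPM in KOd 2D libraries, with -1.29 ± 0.12 (adjusted p = 6.4e-08). ARRB2 fell by 1.29 ± 0.11 on the log2 scale (adjusted p = 1.3e-08). In each, all 3D libraries lay below all 2D libraries.

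Whether the difference between pool and wt depended on the culture was tested as an interaction, the response of a pool minus that of wt. A positive interaction means that the pool stood higher against wt in 3D than in 2D. In labelled KOs 29 of 59 genes had a positive interaction (17.9% of all tested genes) and 2 a negative one (19%), and in KOd 32 were positive (14.4%) and 1 negative (14.7%). Medians were 0.36 in labelled KOs and 0.46 in KOd, against -0.03 and 0.01 over all tested genes. With the 3 outlying libraries left out, the counts were 30 and 2 in labelled KOs and 38 and 1 in KOd. When each library was left out in turn, 21 to 34 were positive in labelled KOs and 24 to 32 in KOd. The 223 unlisted tested genes of the interval had medians of 0.29 in labelled KOs and 0.20 in KOd. Of them 30% and 19.7% were positive, and 6.28% and 4.93% negative. For the 123 partners and paralogs elsewhere, medians were 0.00 and 0.08, with 13% and 22% positive, and 13.8% and 13% negative. By its median over all tested genes, the interval had rank 6 of 154 windows of 20 Mb in both interactions. Both interactions share the wt libraries that entered the choice of the interval, so the positive side was favoured by the choice. The 21 genes positive in both are not independent evidence, and the share of all tested genes positive in both was not counted.

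**Figure D4:**
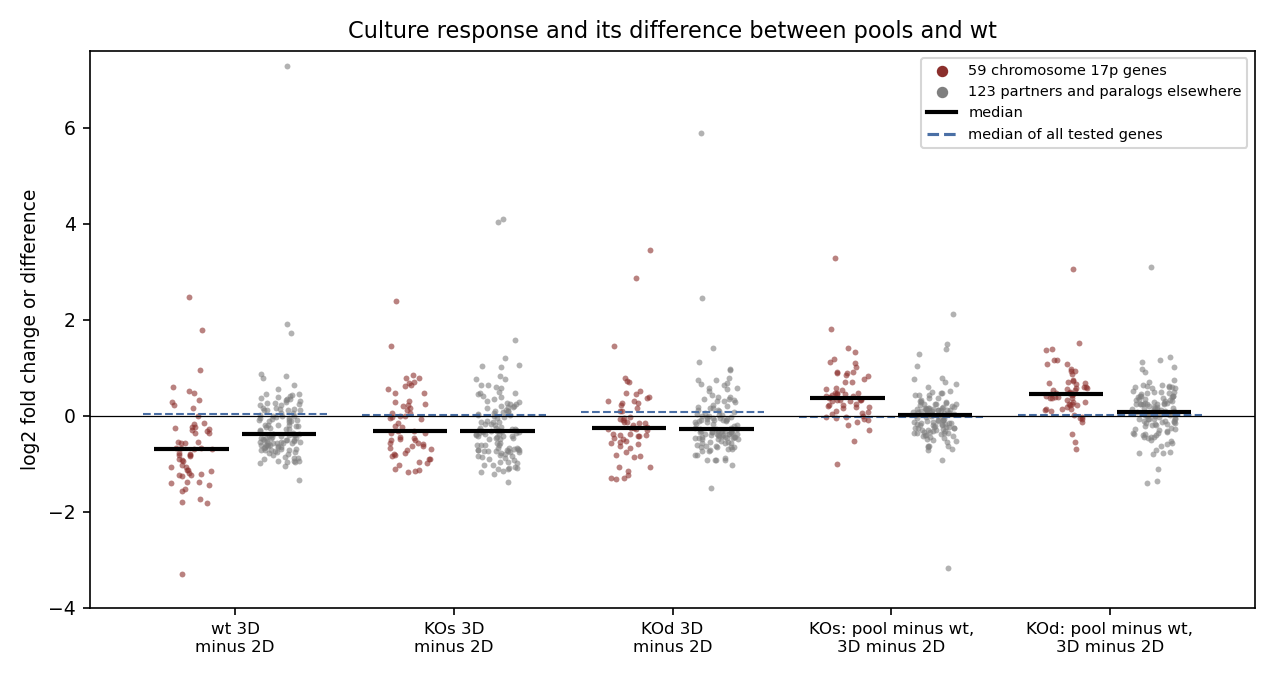
Log2 fold changes between 3D and 2D in wt, labelled KOs and KOd, and their differences between each pool and wt (vertical axis, log2 units), for the 59 chromosome 17p genes (red points) and 123 partners and paralogs encoded elsewhere (grey points), with medians as black lines and the median of all tested genes dashed. The red median is -0.70 in wt, -0.32 in labelled KOs and -0.25 in KOd. The partners' median is -0.37 in wt, -0.32 in labelled KOs and -0.28 in KOd.

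MYH10 led both interactions, at 3.29 ± 0.29 (adjusted p = 4.1e-07) in labelled KOs and 3.05 ± 0.29 (adjusted p = 1.1e-06) in KOd. Its difference between cultures did not pass the test in either pool (-0.0023 and -0.25), while it fell in wt. MYO1C followed in labelled KOs, at 1.81 ± 0.25 (adjusted p = 3.7e-05). CHD3, an ATPase of the NuRD chromatin remodelling complex, had 211, 207 and 216 CPM in labelled KOs 3D libraries, against 146, 152 and 116 CPM in labelled KOs 2D libraries. In wt, CHD3 had 96.8, 94.5 and 75.7 CPM in wt 3D libraries, against 165, 164 and 136 CPM in wt 2D libraries, so that it was higher in labelled KOs spheres and lower in wt spheres than in the matching 2D cells, an interaction of 1.42 ± 0.17 (adjusted p = 7.2e-06). POLR2A (1.19), the largest subunit of RNA polymerase II, and MYBBP1A (1.09) were also among the 5 of 6 transcription and chromatin genes with a positive interaction in labelled KOs (17.9% of all tested genes). In KOd 2 of these 6 passed as positive (14.4% of all tested genes). The median interaction of the 6 was 1.06 in labelled KOs and 0.43 in KOd.

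In KOd, GEMIN4, a member of the SMN complex that assembles spliceosomal RNPs, had 59.6, 55.9 and 83.5 CPM in KOd 3D libraries, against 58.2, 49.4 and 53.0 CPM in KOd 2D libraries. In wt, GEMIN4 had 42.3, 37.8 and 40.7 CPM in wt 3D libraries, against 100.3, 98.1 and 80.3 CPM in wt 2D libraries, and its interaction was 1.52 ± 0.21 (adjusted p = 4.2e-05). KOd 3D replicate C was the highest of its group for GEMIN4. PMP22 had an interaction of 1.38 ± 0.15 (adjusted p = 3.3e-06) in KOd, where the change between cultures did not pass the test (0.16), while it fell in wt (-1.23). The genes CLUH (1.36), WDR81 (1.16) and VPS53 (1.15) also had positive interactions in KOd.

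A few genes went the other way. ALDH3A2 had an interaction of -1.01 ± 0.14 (adjusted p = 3.2e-05) in labelled KOs, but of 1.07 ± 0.14 (adjusted p = 2.0e-05) in KOd, and it rose in spheres of all 3 genotypes. GABARAP, an ATG8-family protein of autophagosomes, had 186, 185 and 179 CPM in labelled KOs 3D libraries, against 232, 169 and 165 CPM in labelled KOs 2D libraries. In wt, GABARAP had 116, 117 and 176 CPM in wt 3D libraries, against 105, 101 and 87.3 CPM in wt 2D libraries, and its interaction in labelled KOs was -0.52 ± 0.20 (adjusted p = 0.049). Labelled KOs 2D replicate A and wt 3D replicate C were the highest of their groups, and the interaction was -0.34 (adjusted p = 0.12) without the first, -0.35 (adjusted p = 0.084) without the second and -0.11 (adjusted p = 0.39) with all 3 outlying libraries left out. The call was lost in 15 of 22 alternatives. SMG6, the nuclease of nonsense-mediated decay, had 50.2, 43.9 and 55.6 CPM in KOd 3D libraries, against 56.7, 56.5 and 57.4 CPM in KOd 2D libraries. In wt, SMG6 had 42.2, 37.1 and 56.4 CPM in wt 3D libraries, against 32.5, 31.7 and 31.1 CPM in wt 2D libraries, and its interaction in KOd was -0.70 ± 0.17 (adjusted p = 0.0045).

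**Figure D5:**
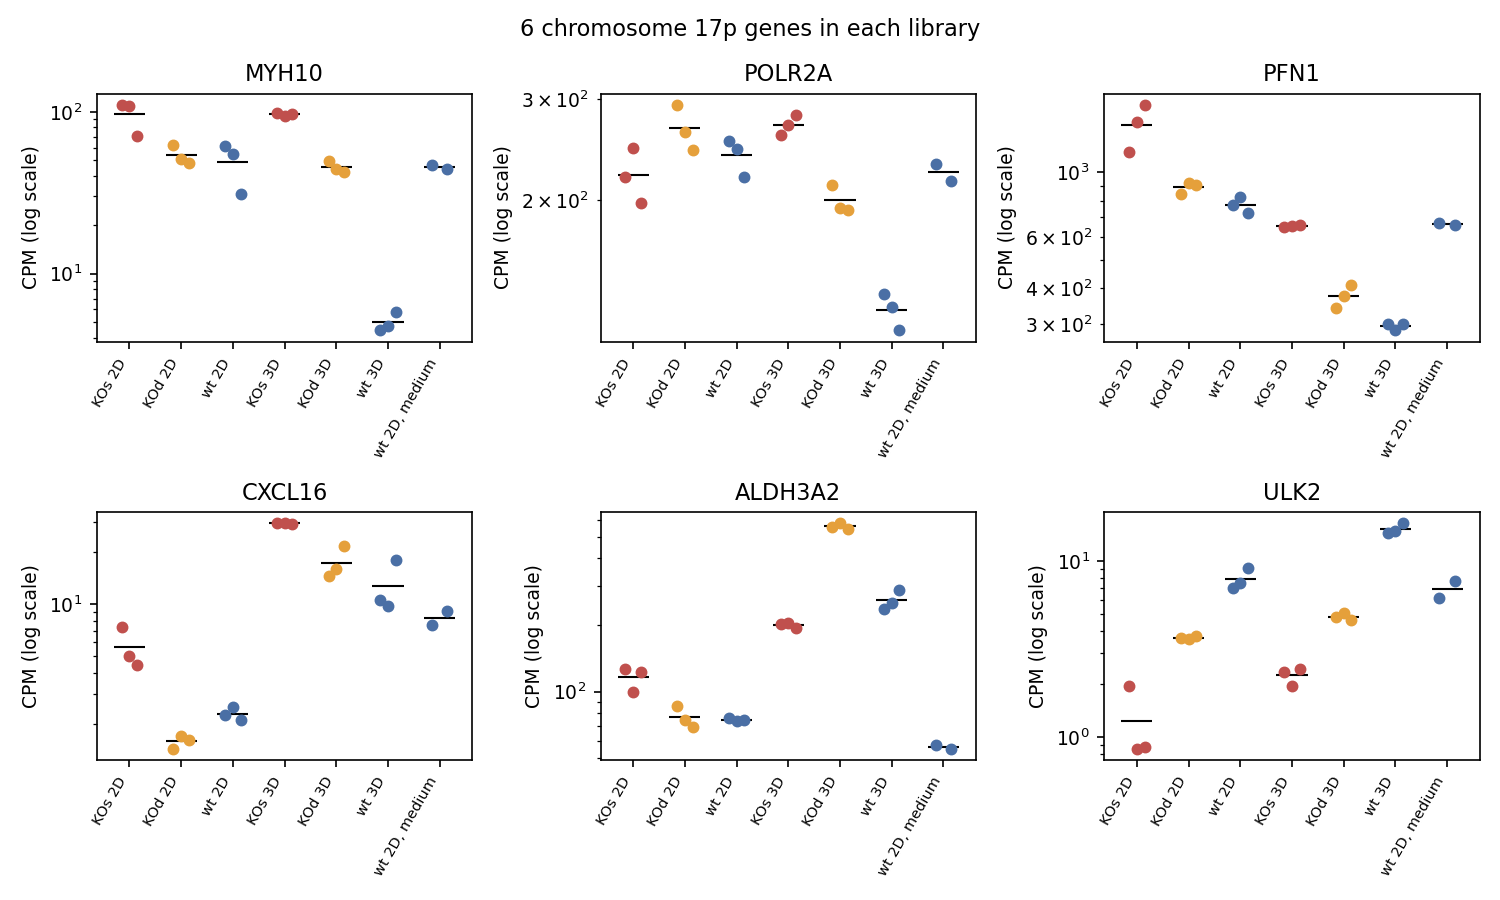
CPM (log scale) of MYH10, POLR2A, PFN1, CXCL16, ALDH3A2 and ULK2 in each library (points) with group means (lines), for the 7 groups. MYH10 in wt 3D lies at 4.46 to 5.82 CPM, far below all other groups, and ALDH3A2 is highest in KOd 3D, at 543 to 577 CPM.

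The pools were also set against each other, a comparison with no wt library, although those of both pools entered the choice of the interval. KOd was mostly lower. In 2D 39 of 59 genes were lower in KOd than in labelled KOs (30.7% of all tested genes) and 7 higher (28.8%), with a median log2 fold change of -0.48 against -0.03 over all. In 3D 41 were lower (23.3%) and 3 higher (23.9%), with -0.44 against -0.01. In both cultures 34 listed genes were lower, and the share of all tested genes lower in both was not counted. Of the 123 partners and paralogs encoded elsewhere, 55.3% were lower and 22% higher in 2D, with a median of -0.32. In 3D 35.8% of them were lower and 12.2% higher, with a median of -0.16. Of the 223 unlisted tested genes of the interval, 31.8% were lower and 16.6% higher in 2D, with a median of -0.21. In 3D 35.9% of those were lower and 9.42% higher, with a median of -0.24. The libraries labelled KOs were also the deeper ones and had a smaller share of rRNA-gene counts, 0.926% to 2.70% against 2.82% to 8.46% in all others. The part of depth and rRNA in these differences was not tested.

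In 2D the lowest against labelled KOs were CXCL16, GEMIN4 and WRAP53. CXCL16 had 1.44, 1.71 and 1.62 CPM in KOd 2D libraries, against 7.40, 4.99 and 4.40 CPM in labelled KOs 2D libraries, a log2 fold change of -1.82 ± 0.25 (adjusted p = 7.0e-06). GEMIN4 had 58.2, 49.4 and 53.0 CPM in KOd 2D libraries, against 141, 206 and 208 CPM in labelled KOs 2D libraries, with -1.79 ± 0.15 (adjusted p = 1.9e-08), and WRAP53 fell to 17.1, 15.9 and 13.0 CPM in KOd, with -1.62 ± 0.15 (adjusted p = 5.8e-08). None of these groups overlapped, and labelled KOs replicate A was the nearest to KOd for the last 2 genes and the farthest for CXCL16. ULK2, MYO1C and NCOR1 were higher in KOd 2D, by 1.56 ± 0.24 (adjusted p = 1.8e-05), 1.08 ± 0.18 (adjusted p = 4.5e-05) and 0.96 ± 0.10 (adjusted p = 1.6e-07). In 3D PMP22, MYH10 and WRAP53 were lowest against labelled KOs, at -1.13 ± 0.11 (adjusted p = 1.6e-07), -1.09 ± 0.20 (adjusted p = 2.0e-04) and -0.98 ± 0.15 (adjusted p = 4.1e-05). ALDH3A2 (1.48 ± 0.10, adjusted p = 3.1e-09), ULK2 (1.10 ± 0.22, adjusted p = 5.1e-04) and UBE2G1 (0.25 ± 0.08, adjusted p = 0.013) were the 3 that were higher, and the UBE2G1 call was lost without KOd 3D replicate C (0.17, adjusted p = 0.083).

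Adherent wt cells in tumorsphere medium were set against those in standard medium, with 2 libraries against 3. They were moved to this medium before harvest, whereas spheres grew in it for 2 rounds of 6 days. The comparison therefore cannot tell the part of the medium in the sphere response from that of sphere growth. Of the 59 genes 9 rose (15.6% of all tested genes) and 11 fell (16.4%), and their median was 0.04 against 0.00. These counts, 15.3% and 18.6% of the 59, are close to the shares of all genes. The median in wt spheres was -0.70. With the 3 outlying libraries, all of other groups, left out of the fit, 15 rose and 15 fell, while 4 rose and 6 fell without medium replicate A, 4 rose and 4 fell without medium replicate B, and 5 rose without wt 2D replicate C. CXCL16 had 7.57 and 9.16 CPM in tumorsphere medium, against 2.27, 2.53 and 2.12 CPM in standard medium, a rise of 1.85 ± 0.26 (adjusted p = 4.0e-05). TAX1BP3 fell, with 46.5 and 52.3 CPM in tumorsphere medium, against 94.0, 102 and 102 CPM in standard medium, a change of -1.01 ± 0.14 (adjusted p = 3.9e-05). NXN (43.3 and 46.1 CPM in tumorsphere medium, -0.62 ± 0.14, adjusted p = 0.0023) and ANKFY1, an endosomal protein (51.3 and 45.9 CPM, -0.62 ± 0.11, adjusted p = 2.7e-04), fell too. PELP1, a coregulator and ribosome assembly factor, rose by 0.62 ± 0.18 (adjusted p = 0.013) and CLUH, which binds mRNAs of mitochondrial proteins, by 0.62 ± 0.20 (adjusted p = 0.025). The calls of PELP1 and CLUH were lost without either medium library or wt 2D replicate C, and that of CLUH also without wt 2D replicate A. MYH10, at 47.1 and 44.4 CPM in tumorsphere medium, did not pass the test (-0.10).

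Most listed genes act with partners encoded elsewhere, and 124 complex partners and paralogs outside the interval, 123 of them tested, were read beside them. Their median log2 differences from wt were 0.15 in labelled KOs 2D, -0.08 in KOd 2D, 0.13 in labelled KOs 3D and -0.04 in KOd 3D. In 3D 45 were higher and 22 lower in labelled KOs (27.8% and 28.5% of all tested genes), and 13 higher and 15 lower in KOd (16.5% and 17.5%). In 2D 47 were higher and 22 lower in labelled KOs (27.7% and 25.5%), and 21 higher and 36 lower in KOd (22.1% and 22.5%). Of 38 listed genes with a partner tested, the gene's difference was above its partners' median in 31 in labelled KOs 2D, 27 in KOd 2D, 35 in labelled KOs 3D and 34 in KOd 3D, as the choice of the interval favours.

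Single partners moved in both directions. TBL1XR1, which binds NCOR1 in its corepressor complex, had 57.1, 59.004 and 57.3 CPM in labelled KOs 3D libraries and 115, 115 and 114 CPM in KOd 3D libraries, against 162, 182 and 219 CPM in wt 3D libraries, with log2 fold changes of -1.70 ± 0.10 (adjusted p = 2.0e-10) and -0.71 ± 0.10 (adjusted p = 1.6e-05). It was thus lower in both pools while NCOR1 was higher. MYO1E, a paralog of MYO1C, had 59.7, 59.6 and 59.8 CPM in labelled KOs 3D libraries and 53.0, 51.0 and 48.9 CPM in KOd 3D libraries, against 27.6, 27.2 and 29.5 CPM in wt 3D libraries, with 1.09 ± 0.07 (adjusted p = 6.4e-10) and 0.86 ± 0.07 (adjusted p = 3.8e-08). MYH9, the heavy chain of non-muscle myosin IIA and a paralog of MYH10, had 1646, 1662 and 1787 CPM in labelled KOs 3D libraries and 1578, 1303 and 1359 CPM in KOd 3D libraries, against 2294, 2009 and 2017 CPM in wt 3D libraries. Its log2 fold change was -0.58 ± 0.09 (adjusted p = 7.7e-05) in KOd spheres and -0.31 ± 0.09 (adjusted p = 0.0069) in labelled KOs spheres, opposite in sign to MYH10. The other paralog tested, MYH14, went the same way as MYH10 in 3D and passed as higher in both pools (adjusted p = 7.4e-05 in labelled KOs and 0.01 in KOd). It is rare, with 101, 82 and 101 counts in labelled KOs 3D libraries and 20, 20 and 14 in KOd 3D libraries, against 1, 1 and 0 in wt 3D libraries. FMR1, a paralog of FXR2, was higher in both pools in 3D, at 0.74 ± 0.09 (adjusted p = 2.8e-06) and 1.01 ± 0.09 (adjusted p = 2.0e-07). MAP4K4, a paralog of MINK1, was higher in labelled KOs spheres (0.99 ± 0.08, adjusted p = 1.6e-08) and lower in KOd spheres (-0.29 ± 0.08, adjusted p = 0.0098). The partner FNIP2, which binds FLCN, was higher in KOd spheres (1.11 ± 0.19, adjusted p = 2.1e-04), where replicate C had the lowest value, 38.3 CPM. FNIP2 was higher in labelled KOs spheres too, with 79.1, 76.6 and 71.8 CPM, against 30.3, 33.5 and 25.5 CPM in wt 3D libraries. SEL1L, which acts with DERL2 in degradation from the endoplasmic reticulum, and COPS2, a COP9 subunit beside COPS3, were lower in labelled KOs spheres, at -0.78 ± 0.08 (adjusted p = 1.4e-07) and -0.62 ± 0.10 (adjusted p = 3.2e-05).

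In 2D POLR2F, a small subunit beside POLR2A in RNA polymerase II, had 79.0, 119 and 129.7 CPM in labelled KOs 2D libraries and 34.8, 37.0 and 34.8 CPM in KOd 2D libraries, against 48.3, 52.9 and 53.2 CPM in wt 2D libraries. It was higher in labelled KOs, by 1.09 ± 0.13 (adjusted p = 1.9e-06), as were COPS7A (0.51 ± 0.06, adjusted p = 2.2e-06) and ATG101 (1.08 ± 0.13, adjusted p = 3.2e-06), which works with ULK kinases. SYVN1, the ubiquitin ligase beside SEL1L and DERL2, had 24.7, 28.2 and 23.7 CPM in labelled KOs 2D libraries and 63.1, 66.2 and 63.2 CPM in KOd 2D libraries, against 44.4, 44.5 and 42.5 CPM in wt 2D libraries. SYVN1 was lower in labelled KOs (-0.78 ± 0.07, adjusted p = 1.3e-07) and higher in KOd (0.55 ± 0.07, adjusted p = 7.2e-06). TBL1XR1 and SEL1L were lower in labelled KOs 2D, at -1.44 ± 0.10 (adjusted p = 2.8e-09) and -0.55 ± 0.08 (adjusted p = 1.2e-05). In KOd 2D the RNA polymerase II subunit POLR2B (-0.68 ± 0.08, adjusted p = 3.9e-06), the spliceosome helicase DDX23 (-0.98 ± 0.11, adjusted p = 1.6e-06) and GEMIN6 (-1.54 ± 0.15, adjusted p = 3.9e-07) were lower, and RB1CC1 (0.72 ± 0.10, adjusted p = 1.2e-05), the scaffold of the ULK complex, and ELAC1 (0.99 ± 0.14, adjusted p = 2.4e-05) were higher. GEMIN6 had 10.7, 11.2 and 9.18 CPM in KOd 2D libraries, against 31.0, 31.9 and 27.3 CPM in wt 2D libraries, with no overlap, and its partner GEMIN4 had 58.2, 49.4 and 53.0 CPM in KOd 2D libraries, against 100.3, 98.1 and 80.3 CPM in wt 2D libraries.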

How the data were processed

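RNA-seq was done on 20 libraries of SUM159PT cells in 7 groups. The values are deposited read counts, not normalized, for each library and Entrez identifier; per the submitters' processing notes the authors aligned reads with STAR to hg38. The libraries are stranded, per the labels' protocols. The counting tool, its strand setting and the annotation are not given in the sources used here, so reads of overlapping genes, which 34 of the 59 listed genes have, may be counted for both or for the wrong one. The deposited gene length in bases scaled levels between genes only. Symbols and coordinates came from RefSeq (GRCh38.p14) for 27740 of 27864 identifiers, strand from GENCODE release 29. The members, role groups and partner list were chosen with earlier results of these data known.

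Counts were filtered with filterByExpr (16323 genes), scaled by TMM and fitted with edgeR 4.0.16 (R 4.3.3) over all 20 libraries with 1 coefficient per group and 13 residual degrees of freedom. Calls are quasi-likelihood tests at a Benjamini-Hochberg adjusted p under 0.05 over all genes tested. After a log2 fold change, ± is its SE, taken as its absolute value divided by the square root of the F statistic. Log2 fold changes used the default prior count of edgeR. A prior count of 2 was used only for the log2 levels in the check of replicate letters. The script was tested on simulated data. Named genes are, by rule, the first and last by position, the highest and lowest mean pool difference of each role group, and up to 3 rises and 3 falls per tested contrast, with up to 3 partners per direction by adjusted p; other genes given with a value were named after their values were seen. A partner and a marker that these rules name are not reported here. Alternatives were other scalings, filters, DESeq2 1.42.0, limma-voom (limma 3.58.1), fewer groups, a replicate block and left-out libraries. Replicate letters are not stated to mark shared cultures, and same-letter libraries deviated together (every r over 0.1) only between KOd 3D and wt 3D.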

Additional observations from a re-analysis of the deposited data

Results flagged for a closer look

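By the interaction test the response to spheres differed from that of wt in 29 positive and 2 negative genes in labelled KOs, and in 32 positive and 1 negative in KOd. The largest in each direction follow, with values on the log2 scale. In labelled KOs it was 3.29 for MYH10, 1.81 for MYO1C and 1.42 for CHD3, which stood higher against wt in 3D than in 2D. It was -1.01 for ALDH3A2 and -0.52 for GABARAP, which stood lower against wt in 3D than in 2D. In KOd it was 3.05 for MYH10, 1.52 for GEMIN4 and 1.38 for PMP22, and -0.70 for SMG6, while ALDH3A2, negative in labelled KOs, was positive, at 1.07. In these tests the same wt libraries stand behind both pools. The GABARAP call was lost in 15 of 22 alternatives.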

How the results depend on the processing

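Of the listed genes named in the 8 tested contrasts, none changed direction, and GABARAP, ULK2, UBE2G1, PELP1 and CLUH lost a call in at least 1 alternative; partners were not rerun gene by gene. In tumorsphere medium no direction holds for the list: the median was -0.0039 without wt 2D replicate C, and 9 rose and 7 fell without wt 2D replicate B. Scaling by library totals alone moved the median of all tested genes to 0.24 from 0.02 in the labelled KOs culture response, to 0.18 from -0.03 in its interaction and to 0.12 from -0.03 for KOd against labelled KOs in 2D, and it moved 3 of the 4 pool differences by over 0.1. Relative to that shift the listed genes moved little: their median minus that of all genes was 0.40 with library totals and 0.39 with TMM in the labelled KOs interaction. With library totals 44 listed genes had a positive and 1 a negative interaction in labelled KOs, 19 rose and 25 fell in labelled KOs spheres, medians were 1.31 in labelled KOs 3D and 0.82 in KOd 3D, and 26 partners were higher and 7 lower in KOd 3D. Of all calls, 65.5% were then higher in the labelled KOs culture response (50.6% with TMM), 69.5% (48.5%) in its interaction, 59.8% (48.4%) for KOd against labelled KOs in 2D, 61.2% (49.6%) in KOd 2D, 63.1% (49.3%) in labelled KOs 3D and 70.1% (48.5%) in KOd 3D. The negative count in labelled KOs was 1 with TMM computed without the interval, without the filter, with limma-voom, with only the groups compared and with the replicate block, which changed no other count by over 1.5 times. It was 1 to 3 when libraries were left out in turn. With only the groups compared, 2 genes had a negative interaction in KOd, 14 rose in tumorsphere medium and 29 partners were higher in labelled KOs 2D. Without the 3 libraries that stand apart, 15 rose in tumorsphere medium, and 55 partners were lower in KOd 2D and 30 in KOd 3D. Without the filter 7 fell in tumorsphere medium. When each library was left out, 4 to 7 genes were higher in KOd than in labelled KOs in 2D (4 without KOd 2D replicate A), 4 to 9 rose and 4 to 9 fell in tumorsphere medium, and 9 to 16 partners were lower in KOd 3D (9 without KOd 3D replicate B). Genes called in tumorsphere medium numbered 5224, 7968 without the 3 libraries and 3192 and 2752 without medium replicate A or B. Over all tested genes of the interval the medians were 0.36 in KOd 2D and 1.08 in labelled KOs 3D, and with the limit at 22 Mb 0.36 and 1.09. The causes were not tested. Low counts limit the precision for ULK2 and CXCL16.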
